A study of Mus musculus with 14 samples.

Results

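The miR-125 and miR-99/100 microRNA (miRNA) families were followed through small RNA libraries of mouse dorsal root ganglia (DRG), the clusters of sensory neuron cell bodies beside the spinal cord. Every arm and copy of miR-125a, miR-125b, miR-99a, miR-99b and miR-100 was taken by its name, whatever its level. This gave 11 mature miRNAs among the 1123 listed in each library, 5 from the 5p arm and 6 from the 3p arm of their hairpins. All 11 were detected in every library and passed the filter on low values, as 638 of the 1123 miRNAs did.

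The libraries came from 4 groups, which were CAST/Ei injured (n = 3), CAST/Ei naive (n = 3), C57BL/6 injured (n = 3) and C57BL/6 naive (n = 5) DRG. CAST/Ei is an inbred strain derived from the wild subspecies Mus musculus castaneus, and C57BL/6 is a standard laboratory strain. Injured mice were adult males of 8 to 10 weeks with the left sciatic nerve crushed for 30 s, while the sources used here do not give the age and sex of the naive mice, the time after the crush or the ganglia taken. The ganglia were dissociated, and the RNA is that of all their cells, neurons and satellite and Schwann glia among them. The comparisons ask how the injury changes miRNA levels in each strain, and how the strains differ with and without it.

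A miRNA guides the Argonaute complex to messenger RNAs that pair with its seed, the bases near its 5′ end, and lowers their translation and stability. miR-125 is the vertebrate counterpart of lin-4 of Caenorhabditis elegans, the first miRNA described, and represses the let-7 antagonist Lin28. The miR-99/100 family is among the oldest in animals and is known for repressing the growth kinase mTOR. In Drosophila, mir-100, let-7 and mir-125 come from 1 transcript. miR-125b is abundant in neurons and has been linked to neuronal differentiation and dendritic spine shape.

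The mature sequences of the 5p arms are shown because they set the families and limit how well the members can be told apart. All are from RefSeq (GRCm38.p6), 5′ to 3′, with the seed (bases 2 to 8) in capitals.
miR-125b-5p: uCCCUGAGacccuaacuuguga
miR-125a-5p: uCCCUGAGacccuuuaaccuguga
miR-351-5p: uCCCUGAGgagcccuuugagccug
miR-6367: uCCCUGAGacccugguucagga
miR-99a-5p: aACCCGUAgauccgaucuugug
miR-100-5p: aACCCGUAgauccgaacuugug
miR-99b-5p: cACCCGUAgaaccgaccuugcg
All 11 members matched a RefSeq mature sequence, as did 918 of the 1123 listed miRNAs. The seed CCCUGAG belongs to miR-125a-5p and miR-125b-5p and also to miR-351-5p and miR-6367, which carry other family names. The seed ACCCGUA belongs to miR-99a-5p, miR-99b-5p and miR-100-5p alone among these 918. miR-125a-5p is identical to miR-125b-5p over the first 13 bases. Counted from the 5′ end, miR-99a-5p and miR-100-5p differ only by U16A (miR-99a-5p first), so a read of either with an error or an edit at that base could be assigned to the other. miR-99b-5p differs from miR-99a-5p by A1C, U11A, U16C and U21C.

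The 3p arms, shown because several of the differences below lie on this side of the hairpin, share less.
miR-99a-3p: cAAGCUCGuuucuaugggucu
miR-99b-3p: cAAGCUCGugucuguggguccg
miR-125a-3p: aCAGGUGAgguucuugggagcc
miR-125b-1-3p: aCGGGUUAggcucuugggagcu
miR-125b-2-3p: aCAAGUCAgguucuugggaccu
miR-99a-3p and miR-99b-3p share the seed AAGCUCG, and each of the other 3p members, miR-100-3p included, has a seed that no other matched miRNA of the files carries. The hairpins lie in 3 genomic clusters, each with a let-7 hairpin between a miR-99/100 and a miR-125 hairpin, all on the plus strand. Mir100, Mirlet7a-2 and Mir125b-1 span chr9:41531425-41582002 (GRCm38), 50578 bases, in introns of the long noncoding gene 3110039I08Rik. Mir99a, Mirlet7c-1 and Mir125b-2 span chr16:77598936-77646343, 47408 bases, in introns of Mir99ahg. Mir99b, Mirlet7e and Mir125a lie within 692 bases at chr17:17830188-17830879, inside the gene Spaca6, where Mir125a overlaps an exon and Mir99b an intron. miR-125b-5p has the same sequence at chr9:41581940-41581961 (Mir125b-1) and at chr16:77646279-77646300 (Mir125b-2), so its reads cannot be assigned to a hairpin, while the 3p arms of the 2 copies differ and were counted separately. These coordinates are those of the reference, and the sources used here do not name the build of the deposited files.

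The libraries held 4007706 to 15642360 reads, and 949 to 1084 miRNAs were detected in each. Values are in CPM, reads relative to a library total that the authors had scaled, and 1 read was worth 0.0674 to 0.253 CPM. C57BL/6 naive libraries 4 and 5 stood apart. Their Spearman correlations with the other 12 libraries over the 638 kept miRNAs ran from 0.871 to 0.926. Their correlation with each other was 0.951, and no pair among the other 12 libraries fell under 0.925. They are therefore given separately, and results that include them are given with and without them. The defining miRNAs of neurons (5 of 5 in the files), among them miR-138-5p and miR-124-3p, were present in every group.

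miR-125b-5p was the second most abundant miRNA of the ganglia, with 47677, 41369.7 and 52004 CPM in CAST/Ei injured DRG, 55769.8, 49704 and 78513 in CAST/Ei naive, 43400.0, 52885 and 42381 in C57BL/6 injured and 50024, 47965, 51110.3, 120285 and 108772 in C57BL/6 naive libraries 1 to 5. In 12 libraries it ran from 41369.7 to 78513 CPM, with no separation of the groups, and in C57BL/6 naive 4 and 5 it stood at 120285 and 108772 CPM. miR-125a-5p, its seed mate from the chromosome 17 cluster, had 6455, 6109 and 7584 CPM in CAST/Ei injured DRG, 6462, 9017 and 11274 in CAST/Ei naive, 5216, 6285 and 5878 in C57BL/6 injured and 7613, 5391, 9342, 24216 and 17212 in C57BL/6 naive libraries 1 to 5. It was likewise highest in C57BL/6 naive 4 and 5, and its level was 0.112 to 0.201 of that of miR-125b-5p over the 14 libraries. In bulk ganglia a lower level can come from fewer cells of a type or from less of the miRNA in each, and these cannot be told apart.

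miR-99a-5p, the main member of its family, had 19661, 14236 and 12983 CPM in CAST/Ei injured DRG, 21918, 13904 and 27855 in CAST/Ei naive, 20008, 22364 and 12187 in C57BL/6 injured and 30900.3, 27051, 18749.5, 15521 and 8296 in C57BL/6 naive libraries 1 to 5. The groups overlapped, and the lowest value was that of C57BL/6 naive 5. miR-100-5p had 5161, 4207 and 3978 CPM in CAST/Ei injured DRG, 5013, 4311 and 7143 in CAST/Ei naive, 4212, 6109.5 and 2985 in C57BL/6 injured and 6114, 6973, 5202, 5534 and 4055 in C57BL/6 naive libraries 1 to 5. All 4 groups of miR-100-5p overlapped, and its level was 0.198 to 0.310 of that of miR-99a-5p in the 12 libraries, against 0.357 and 0.489 in C57BL/6 naive 4 and 5. miR-99b-5p had 2165, 1545 and 1956 CPM in CAST/Ei injured DRG, 1873, 1834 and 1395 in CAST/Ei naive, 1672, 1903 and 1078 in C57BL/6 injured and 1769, 2050.1, 1453, 1596 and 1299.7 in C57BL/6 naive libraries 1 to 5. Its groups overlapped, and C57BL/6 naive 4 and 5 lay within the range of the others.

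Among all listed miRNAs the mean level over the 14 libraries placed miR-125b-5p at rank 2, miR-99a-5p at 13, miR-125a-5p at 32, miR-100-5p at 47 and miR-99b-5p at 76. The group means had this same order in all 4 groups. miR-125b-5p averaged 47017 ± 5348 CPM in CAST/Ei injured, 61329 ± 15188 in CAST/Ei naive, 46222 ± 5793 in C57BL/6 injured (SD, n = 3 each) and 75631 ± 35758 in C57BL/6 naive DRG (SD, n = 5). It exceeded the range of miR-99a-5p in every group. Neighbours in the order whose ranges overlapped were miR-125a-5p and miR-100-5p in CAST/Ei naive, C57BL/6 injured and C57BL/6 naive DRG, and miR-99a-5p and miR-125a-5p in C57BL/6 naive DRG. In the 12 libraries other than C57BL/6 naive 4 and 5, miR-99a-5p exceeded miR-125a-5p in every library. Mature miRNAs are of nearly equal length, so these levels need no length correction, but ligation and reverse transcription differ between sequences and were not measured.

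**Figure D1:**
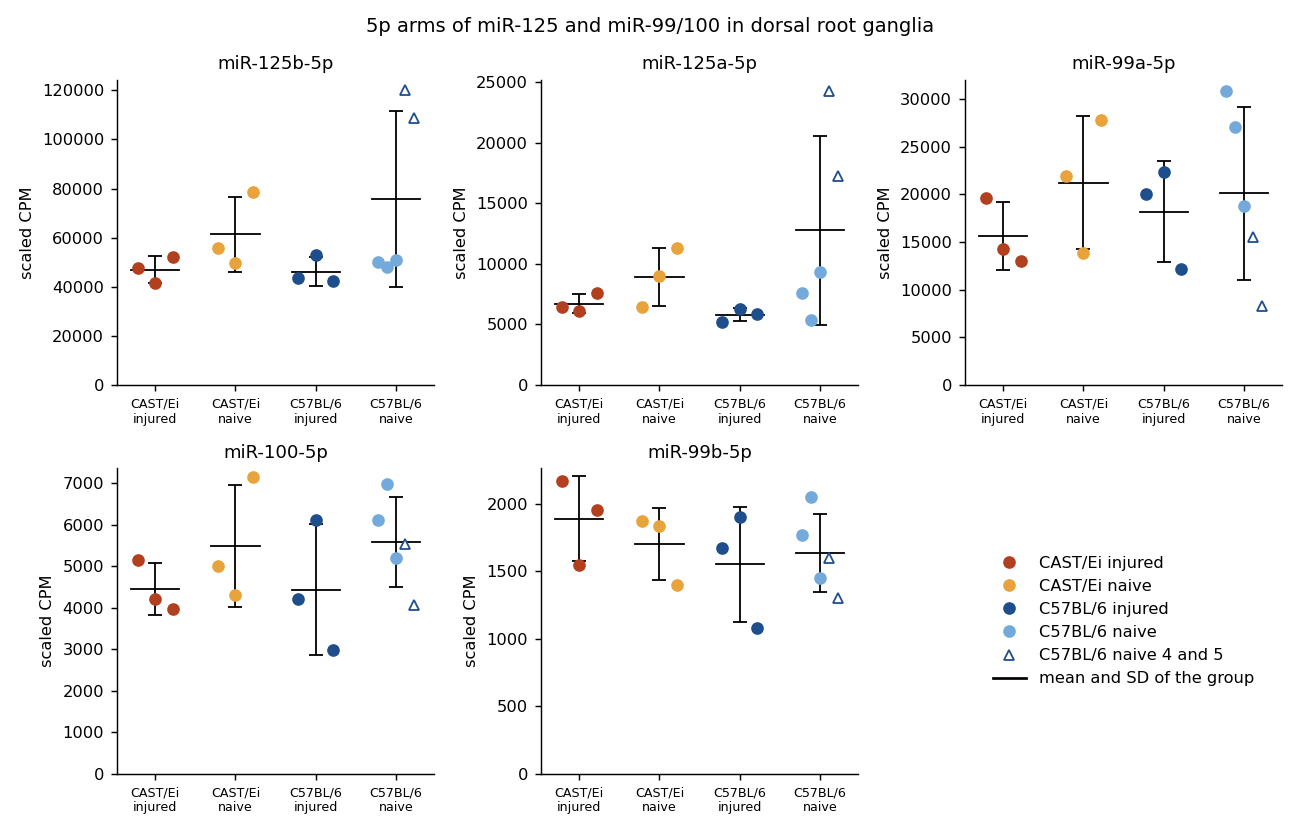
CPM of the 5 members from the 5p arm in each library (points, open triangles for C57BL/6 naive 4 and 5), by group on the horizontal axis, with the group mean and SD in black. The triangles of miR-125b-5p (120285 and 108772 CPM) and miR-125a-5p (24216 and 17212 CPM) lie above all other points, and the other points of the 4 groups overlap.

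Together the 11 members took 7.83% to 8.99% of a library's total in CAST/Ei injured, 8.09% to 11.1% in CAST/Ei naive, 6.96% to 9.76% in C57BL/6 injured and 8.502% to 12.9% in C57BL/6 naive DRG. Nearly all of this was the 5p arms. The 6 members of the 3p arm summed to 447 to 639.6 CPM in a library, or 0.0370% to 0.0684% of the total.

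miR-99a-3p was the most abundant 3p member in 11 of the 14 libraries, with 257, 258 and 254 CPM in CAST/Ei injured DRG, 324, 251 and 179 in CAST/Ei naive, 257, 270.2 and 299 in C57BL/6 injured and 226, 270.2, 143, 81.8 and 41.4 in C57BL/6 naive libraries 1 to 5. The exceptions were C57BL/6 naive 3, 4 and 5, and its lowest values were those of naive 4 and 5. miR-125b-2-3p, from the chromosome 16 copy, had 96.9, 81.3 and 89.2 CPM in CAST/Ei injured DRG, 127, 105 and 145 in CAST/Ei naive, 118, 183 and 185 in C57BL/6 injured and 86.6, 155, 195, 151 and 169.9 in C57BL/6 naive libraries 1 to 5. The CAST/Ei injured libraries lay below all CAST/Ei naive and all C57BL/6 injured ones. miR-125b-1-3p, from the chromosome 9 copy, had 38.7, 34.2 and 49.1 CPM in CAST/Ei injured DRG, 39.5, 40.3 and 37.1 in CAST/Ei naive, 37.7, 50.7 and 47.5 in C57BL/6 injured and 45.2, 40.8, 42.3, 81.2 and 56.999 in C57BL/6 naive libraries 1 to 5. It was highest in C57BL/6 naive 4 and 5 and ran from 34.2 to 50.7 CPM elsewhere, and the chromosome 16 copy exceeded it 1.82 to 4.60 times in each library.

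miR-125a-3p had 40.8, 38.1 and 43.0 CPM in CAST/Ei injured DRG, 39.5, 44.5 and 59.8 in CAST/Ei naive, 25.3, 32.9 and 31.4 in C57BL/6 injured and 29.5, 26.3, 31.2, 49.6 and 76.0 in C57BL/6 naive libraries 1 to 5. All 6 CAST/Ei libraries exceeded all C57BL/6 libraries except naive 4 and 5. The share of the kept miRNAs that split in this way was not counted. Between the strains 24.6% stood apart in naive DRG without naive 4 and 5, and 35.9% in injured DRG. miR-99b-3p had 73.9, 50.3 and 72.2 CPM in CAST/Ei injured DRG, 56.9, 49.6 and 32.7 in CAST/Ei naive, 45.3, 51.9 and 56.4 in C57BL/6 injured and 45.2, 44.9, 38.8, 100.4 and 67.3 in C57BL/6 naive libraries 1 to 5, with overlap between all groups. miR-100-3p, with the lowest mean of the 11, had 23.6, 15.1 and 22.8 CPM in CAST/Ei injured DRG, 30.9, 27.8 and 22.5 in CAST/Ei naive, 32.4, 23.8 and 20.1 in C57BL/6 injured and 26.0, 26.1, 26.6, 22.3 and 35.2 in C57BL/6 naive libraries 1 to 5, and its groups overlapped too. The smallest number of reads behind any of these values was 94. No molecular identifiers are named in the labels, so reads may not be independent molecules.

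**Figure D2:**
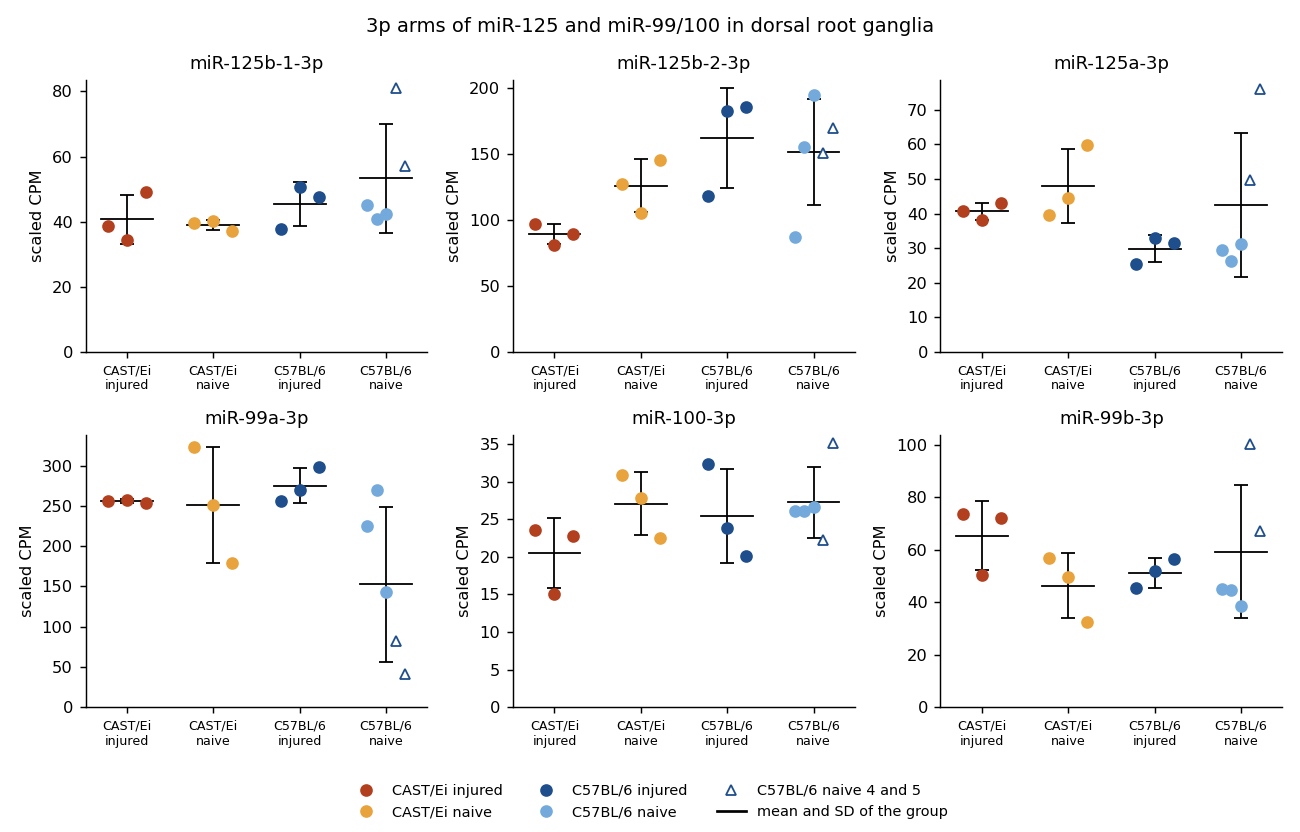
CPM of the 6 members from the 3p arm in each library (points, open triangles for C57BL/6 naive 4 and 5), by group on the horizontal axis, with the group mean and SD in black. miR-125a-3p is higher in the CAST/Ei libraries than in C57BL/6 naive 1 to 3 and C57BL/6 injured, and the CAST/Ei injured points of miR-125b-2-3p lie below the CAST/Ei naive and C57BL/6 injured ones.

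In C57BL/6 naive 4 and 5 the 5p arms of miR-125 took a larger share of the library, and those of miR-99/100 a smaller share, than in each of the other 12, with a narrow margin for miR-99/100 in naive 4. The miR-125 5p arms took 11.02% and 11.6% of these libraries, against 4.90% to 7.85% in the other 12. The miR-99/100 5p arms took 1.73% and 1.26%, against 1.74% to 4.12% in the other 12. The ratio of miR-99a-5p to miR-125b-5p, whose hairpins share the chromosome 16 cluster, was 0.129 and 0.0763, against 0.2497 to 0.618.

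Both libraries lay above all other 12 for miR-125a-5p, miR-125b-5p and miR-125b-1-3p, and below all other 12 for miR-99a-3p. These are 3 and 1 of the 11 members, where 15.2% of the 638 kept miRNAs lay above and 15.7% below. On the log2 scale their mean differed from that of C57BL/6 naive 1 to 3 by 1.49 for miR-125a-5p, 1.20 for miR-125b-5p and 1.06 for miR-125a-3p. The differences were −1.80 for miR-99a-3p and −1.14 for miR-99a-5p, and the median over the kept miRNAs was −0.06. miR-100-5p and miR-99b-5p lay within the range of the other libraries in both. No test was made of these 2 libraries against the rest of their own group.

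Of the 10 lists of cell type markers, the summed level of 7 stood apart in these libraries. The 4 miRNAs of myelinating glia, led by miR-338-3p, summed to 8628 and 8044 CPM in C57BL/6 naive 4 and 5, against 18222 to 35829 in C57BL/6 naive 1 to 3. The 4 erythrocyte miRNAs in the files summed to 7069 and 6903 CPM against 10073 to 26343, and the 2 endothelial ones to 12879 and 11212 CPM against 15254 to 16081. These 3 lists were lower in naive 4 and 5, and the other 4 were higher. The 5 epithelial miRNAs summed to 1489 and 291 CPM against 28.4 to 35.5, and the hepatocyte miR-122-5p stood at 661 and 369 CPM against 8.63 to 15.7. The 5 neuronal miRNAs summed to 153739 and 161052 CPM against 127937 to 137953, and the 3 of fibroblasts to 2875.5 and 4776 CPM against 2226 to 2874.9. The margin for fibroblasts was narrow, and the lists of skeletal muscle, leukocytes and mural cells overlapped. No marker of these lists was at 0 in all libraries, and their part in the levels of the members was not tested.

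**Figure D3:**
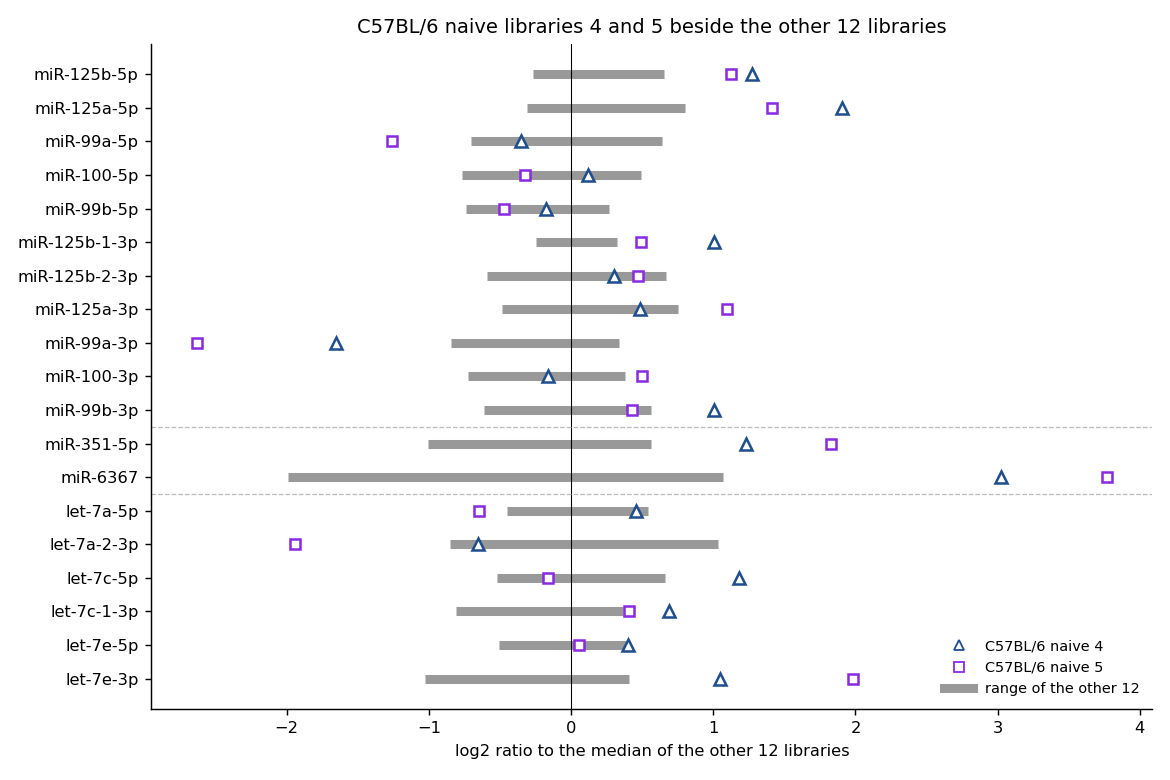
Level of the 11 members, of the 2 other miRNAs with the miR-125 seed and of let-7 arms from the same clusters in C57BL/6 naive 4 (triangles) and 5 (squares), as the log2 ratio to the median of the other 12 libraries, with the range of those 12 as grey bars. Among the members, miR-125b-5p, miR-125a-5p and miR-125b-1-3p lie to the right of their bars in both libraries, as do miR-351-5p, miR-6367, let-7c-1-3p and let-7e-3p, and miR-99a-3p lies to the left.

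Injury in C57BL/6 DRG changed none of the 11 members past the threshold (limma, adjusted p under 0.05), where 3.13% of the 638 kept miRNAs passed. All 5 of the 5p members had fold changes below 0, but with libraries rescaled to plain totals miR-99a-5p and miR-99b-5p stood at 0.094 and 0.048, and with totals taken without the 3 most abundant miRNAs miR-99a-5p stood at 0.019. Without C57BL/6 injured 3 miR-99a-5p and miR-99b-5p stood at 0.21 and 0.15, and miR-99a-5p was also above 0, at 0.14 and 0.091, without C57BL/6 naive 1 or 2. Plain totals moved the median of all 638 miRNAs to 0.26. On the authors' scaling the median of the 5p members was −0.37 on the log2 scale, that of the 11 members −0.12, and that of the 638 miRNAs 0.12. At an unadjusted p under 0.05 there were 2 members of 11, and 151 of the 638. With edgeR 0 members passed and with DESeq2 1 did.

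miR-125a-5p averaged 5793 ± 539 CPM in C57BL/6 injured (SD, n = 3) and 12755 ± 7803 CPM in C57BL/6 naive DRG (n = 5), a log2 difference of −0.93 ± 0.39 (SE, 95% interval −1.75 to −0.099) with a limma adjusted p of 0.17. The ranges overlapped, and 4 of the 5 naive libraries exceeded all 3 injured ones. DESeq2 on the recovered reads called it lower, with a log2 difference of −1.23 and an adjusted p of 0.0319, where 12.4% of the miRNAs it tested were called. Over the 29 alternatives the adjusted p ran within 0.0319 to 0.47. Leaving out C57BL/6 naive 4 and 5 gave −0.33 (95% interval −0.83 to 0.17), with an adjusted p of 0.47.

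miR-125b-5p differed by −0.59 ± 0.32 (SE, 95% interval −1.27 to 0.083) on the log2 scale (limma adjusted p = 0.277), and by −0.11 (95% interval −0.50 to 0.28) without C57BL/6 naive 4 and 5. The estimate thus lay nearer 0, with a narrower interval, once these libraries were left out. miR-99a-3p had a positive difference, with 275 ± 21.6 CPM in C57BL/6 injured (SD, n = 3) and 152 ± 95.7 CPM in C57BL/6 naive DRG (n = 5). Its log2 difference was 1.14 ± 0.46 (SE, 95% interval 0.15 to 2.13) with a limma adjusted p of 0.159, and 0.41 with an adjusted p of 0.408 without C57BL/6 naive 4 and 5. The ranges met, since C57BL/6 naive 2 lay within the range of the injured libraries.

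In the miR-99/100 family the 5p arms differed by −0.051 for miR-99a-5p, −0.37 for miR-100-5p and −0.097 for miR-99b-5p, with limma adjusted p-values of 0.951, 0.421 and 0.821. The same 3 differences without C57BL/6 naive 4 and 5 were −0.51, −0.51 and −0.21, so that of miR-99a-5p was more negative and that of miR-125b-5p closer to 0. The 3p members other than miR-99a-3p differed by −0.39 (miR-125a-3p), −0.19 (miR-125b-1-3p), 0.12 (miR-125b-2-3p), −0.12 (miR-99b-3p) and −0.11 (miR-100-3p), with limma adjusted p-values of 0.493 or more. For the 11 members the 95% interval reached 0.518 to 0.990 to either side of the estimate. In 0 of 11 members did the injured and naive ranges stand apart, where 14.9% of the kept miRNAs did.

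Beside these values, the sums of 3 of the 10 cell type lists stood apart between injured and naive C57BL/6 DRG. The 5 neuronal markers summed to 99982 to 105724 CPM in C57BL/6 injured and 127937 to 161052 CPM in C57BL/6 naive DRG, or 127937 to 137953 CPM in naive 1 to 3 alone. The 4 markers of myelinating glia summed to 36608 to 45396 CPM in injured and 8044 to 35829 CPM in naive DRG, or 18222 to 35829 CPM in naive 1 to 3 alone. The 2 endothelial miRNAs summed to 18408 to 20895 CPM in injured and 11212 to 16081 CPM in naive DRG, or 15254 to 16081 CPM in naive 1 to 3 alone. The neuronal list was thus lower, and the glial and endothelial lists higher, in the injured libraries, with and without naive 4 and 5. The glial margin was narrow, and only the sum of each list was compared. Against naive 1 to 3 alone the 4 skeletal muscle miRNAs stood apart too, with 8868 to 9575 CPM in injured and 11494 to 13910.5 CPM in naive DRG. Their part was not tested.

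Injury in CAST/Ei DRG also changed none of the 11 members past the threshold, where 1.1% of the kept miRNAs passed. The median difference was −0.28 for the members and −0.09 for the 638 miRNAs, and 0 members and 41 of the 638 reached an unadjusted p under 0.05. With edgeR and with DESeq2 0 members passed. miR-125b-2-3p averaged 89.1 ± 7.80 CPM in CAST/Ei injured and 126 ± 20.02 CPM in CAST/Ei naive DRG (SD, n = 3 each), and was the 1 member of 11 whose ranges stood apart, where 26.6% of the kept miRNAs did. Its log2 difference was −0.49 ± 0.31 (SE, 95% interval −1.15 to 0.18), with a limma adjusted p of 0.774. The limma fit without C57BL/6 naive 4 and 5 called 17 miRNAs and no member, with an adjusted p of 0.399 for miR-125b-2-3p.

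The 5p arms of miR-125 differed by −0.36 (miR-125b-5p) and −0.38 (miR-125a-5p), and those of the other family by −0.41 (miR-99a-5p), −0.28 (miR-100-5p) and 0.15 (miR-99b-5p). The limma adjusted p-values of these 5 lay between 0.868 and 0.938. miR-99b-3p had the largest positive difference of the members, 0.50 with an adjusted p of 0.793. With libraries rescaled to plain totals the median of all kept miRNAs was 0.15 in place of −0.09, and the difference of miR-125b-5p was then −0.096.

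Of the 10 cell type lists, 5 had sums that stood apart between injured and naive CAST/Ei DRG, each lower in injured DRG. The neuronal markers summed to 95969 to 104135 CPM in CAST/Ei injured and 120554 to 136550.0 CPM in CAST/Ei naive DRG, and those of myelinating glia to 30720.3 to 32124 CPM in CAST/Ei injured and 37058 to 42868 CPM in CAST/Ei naive DRG. The miRNAs of skeletal muscle summed to 6359 to 7393 CPM in injured and 8788 to 11362 CPM in naive DRG, and those of erythrocytes to 7593 to 9103 CPM in CAST/Ei injured and 9587 to 13361 CPM in CAST/Ei naive DRG. The epithelial miRNAs summed to 57.3 to 71.5 CPM in injured and 117 to 157 CPM in naive DRG. The part of these cell types was not tested.

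The difference between the strains in the injury effect was tested directly. None of the 11 members passed, where 0% of the kept miRNAs did with limma, 1 miRNA with edgeR and 9 with DESeq2, no member among them. At an unadjusted p under 0.05 there were 0 members and 52 of the 638 miRNAs. The largest differences, each the CAST/Ei minus the C57BL/6 injury effect, were −1.07 ± 0.70 (SE, 95% interval −2.55 to 0.42) for miR-99a-3p and 0.63 ± 0.48 (SE, 95% interval −0.39 to 1.65) for miR-99b-3p, with limma adjusted p-values of 0.538 and 0.593. Both were smaller without C57BL/6 naive 4 and 5, at −0.34 and 0.26. For miR-125b-5p the difference was 0.23 ± 0.48 (SE, 95% interval −0.78 to 1.24), and −0.25 without those libraries, so neither a like nor an unlike response of the strains was shown at this number of libraries.

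Between the strains in naive DRG, none of the 11 members passed with all libraries, where 11.1% of the kept miRNAs did, and at an unadjusted p under 0.05 there were 0 members and 203 of the 638. With edgeR and DESeq2 0 members passed. miR-125a-3p averaged 48.0 ± 10.6 CPM in CAST/Ei naive (SD, n = 3) and 42.5 ± 20.8 CPM in C57BL/6 naive DRG (n = 5), a log2 difference of 0.26 ± 0.32 (SE, 95% interval −0.42 to 0.95) with a limma adjusted p of 0.605. Without C57BL/6 naive 4 and 5 it was higher in CAST/Ei, by 0.69 (95% interval 0.22 to 1.16) with an adjusted p of 0.0495, in a fit that called 14.2% of the miRNAs tested. Over the alternatives the adjusted p of miR-125a-3p ran within 0.0404 to 0.961. edgeR without the same 2 libraries gave 0.59 with an adjusted p of 0.106, which did not pass. All 3 CAST/Ei naive libraries exceeded C57BL/6 naive 1 to 3, as the ranges of 24.6% of the kept miRNAs stood apart.

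Beside this, the sums of 4 of the 10 cell type lists stood apart between CAST/Ei naive and C57BL/6 naive 1 to 3. The miRNAs of myelinating glia summed to 37058 to 42868 CPM in CAST/Ei naive and 18222 to 35829 CPM in C57BL/6 naive 1 to 3, and the endothelial ones to 18746 to 27549 CPM in CAST/Ei naive and 15254 to 16081 CPM in C57BL/6 naive 1 to 3. The epithelial miRNAs summed to 117 to 157 CPM in CAST/Ei naive and 28.4 to 35.5 CPM in C57BL/6 naive 1 to 3, and those of skeletal muscle to 8788 to 11362 CPM in CAST/Ei naive and 11494 to 13910.5 CPM in C57BL/6 naive 1 to 3. Skeletal muscle was thus lower and the other 3 lists higher in CAST/Ei, and with all 5 C57BL/6 naive libraries only the glial and endothelial lists stood apart. Their part in the difference of miR-125a-3p was not tested.

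The differences of the 5p arms of miR-125 changed sign with these libraries. miR-125b-5p differed between CAST/Ei and C57BL/6 naive DRG by −0.21 with all libraries and by 0.28 without C57BL/6 naive 4 and 5, and miR-125a-5p by −0.34 and 0.26, none past the threshold. miR-125b-1-3p was the 1 member whose ranges stood apart with all 5 C57BL/6 naive libraries, where 16.5% of the kept miRNAs did. The margin was narrow, with 40.3 CPM in the highest CAST/Ei naive and 40.8 CPM in the lowest C57BL/6 naive library. Its mean was 39.0 ± 1.63 CPM in CAST/Ei naive (SD, n = 3) and 53.3 ± 16.8 CPM in C57BL/6 naive DRG (n = 5). Its log2 difference was −0.39 ± 0.27 (SE, 95% interval −0.96 to 0.17) with a limma adjusted p of 0.327, and −0.13 without naive 4 and 5. Its ranges also stood apart without naive 4 and 5, as did those of 24.6% of the kept miRNAs. miR-99a-3p differed by 0.97 with an adjusted p of 0.164, and by 0.24 without C57BL/6 naive 4 and 5.

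Between the strains in injured DRG, none of the 11 members passed, where 3.29% of the kept miRNAs did. C57BL/6 naive 4 and 5 enter this comparison through the filter and the shared estimate of the spread, and not through its group means. Its CAST/Ei injured libraries are those of the CAST/Ei injury comparison. At an unadjusted p under 0.05 there were 1 member, miR-125b-2-3p, and 56 of the 638 miRNAs, and with edgeR and DESeq2 0 members passed. miR-125b-2-3p averaged 89.1 ± 7.80 CPM in CAST/Ei injured and 162 ± 38.2 CPM in C57BL/6 injured DRG (SD, n = 3 each). Its log2 difference was −0.83 ± 0.31 (SE, 95% interval −1.49 to −0.17), with a limma adjusted p of 0.318. The same estimate without C57BL/6 naive 4 and 5 had an adjusted p of 0.128. Fitted on the 6 injured libraries alone miR-125b-2-3p passed, with an adjusted p of 0.018, in a fit that called 16.5% of the miRNAs. Over the alternatives the adjusted p ran within 0.018 to 0.862.

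The 3p arm of the other copy, miR-125b-1-3p, differed by −0.16 ± 0.30 (SE, 95% interval −0.79 to 0.48), and the shared miR-125b-5p by 0.026 ± 0.35 (SE, 95% interval −0.73 to 0.78), both with overlap of the ranges. miR-125a-3p averaged 40.6 ± 2.46 CPM in CAST/Ei injured and 29.9 ± 4.02 CPM in C57BL/6 injured DRG (SD, n = 3 each), and the ranges did not meet. Its log2 difference was 0.44 ± 0.36 (SE, 95% interval −0.33 to 1.21) with a limma adjusted p of 0.896. The same estimate without C57BL/6 naive 4 and 5 had an adjusted p of 0.327. The ranges of miR-125a-3p and miR-125b-2-3p, 2 of 11 members, thus stood apart between the injured groups, where 35.9% of the kept miRNAs did.

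The sums of 5 of the 10 cell type lists stood apart between the injured groups. The 2 mural cell miRNAs in the files, higher in CAST/Ei, summed to 15109 to 16398 CPM in CAST/Ei injured and 8997 to 12319.9 CPM in C57BL/6 injured DRG. The other 4 lists were lower in CAST/Ei. The miRNAs of myelinating glia summed to 30720.3 to 32124 CPM in CAST/Ei injured and 36608 to 45396 CPM in C57BL/6 injured DRG, and those of erythrocytes to 7593 to 9103 CPM in CAST/Ei injured and 11102 to 14499.7 CPM in C57BL/6 injured DRG. The miRNAs of skeletal muscle summed to 6359 to 7393 CPM in CAST/Ei injured and 8868 to 9575 CPM in C57BL/6 injured DRG, and those of fibroblasts to 2219 to 2357 CPM in CAST/Ei injured and 2507 to 2849 CPM in C57BL/6 injured DRG. Their part in the differences of miR-125b-2-3p and miR-125a-3p was not tested.

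**Figure D4:**
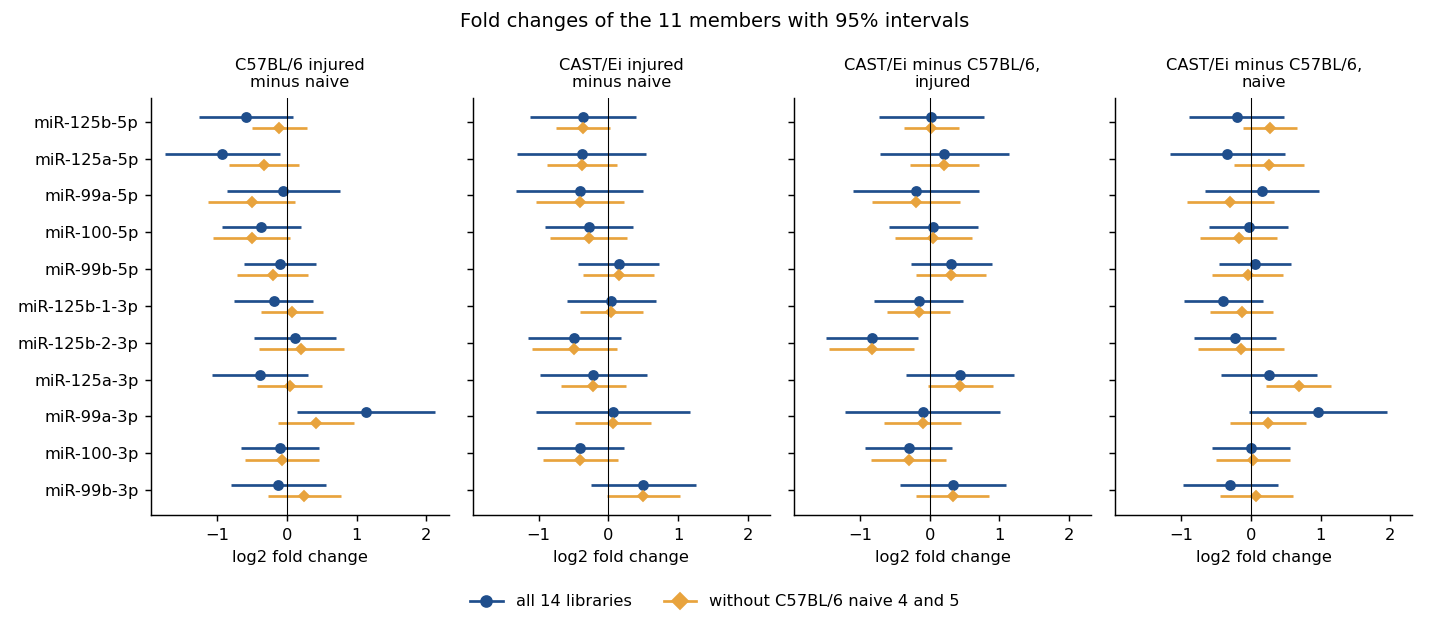
Log2 fold changes of the 11 members in 4 comparisons (panels), with 95% intervals from limma, for all 14 libraries (circles) and without C57BL/6 naive 4 and 5 (diamonds). Most intervals cross 0, and those of miR-125b-2-3p between the injured groups lie below 0 in both fits.

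Each hairpin yields 2 arms, and the ratio of 5p to 3p within a library does not depend on the library's scaling. The miR-125a ratio was 158 to 176 in CAST/Ei injured and 187 to 206 in C57BL/6 injured DRG, and 163 to 203 in CAST/Ei naive and 205 to 488 in C57BL/6 naive DRG. It was lower in CAST/Ei in both states with no overlap, by a narrow margin in naive DRG, where the highest CAST/Ei library had 203 and the lowest C57BL/6 library 205. Of the 199 hairpins with both arms kept, the ratio was lower in CAST/Ei without overlap in 10.1% for injured and 2.01% for naive DRG. With C57BL/6 naive 4 and 5 left out, the C57BL/6 naive range was 205 to 299.8, still above the CAST/Ei naive one. The share of hairpins standing apart without them was not counted.

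The miR-99a ratio was 40.8 to 82.8 in C57BL/6 injured and 100.1 to 200.5 in C57BL/6 naive DRG, with no overlap. A ratio lower in injured DRG without overlap was found for 3.52% of the 199 hairpins. C57BL/6 naive 1 to 3 alone had 100.1 to 137, so the ranges also stood apart without naive 4 and 5. The share of hairpins standing apart in that smaller comparison was not counted. In CAST/Ei DRG the miR-99a ratio was 51.2 to 76.6 in injured and 55.4 to 156 in naive libraries, which overlapped.

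The miR-99b ratio was 27.1 to 30.7 in CAST/Ei injured and 32.9 to 42.7 in CAST/Ei naive DRG, with no overlap. In CAST/Ei a ratio lower in injured DRG without overlap was found for 11.1% of the hairpins. In C57BL/6 DRG the miR-99b ratio was 19.1 to 36.9 in injured and 15.9 to 45.7 in naive libraries, which overlapped. The miR-100 ratio overlapped in all 4 comparisons, with a range of 115 to 317 over the 14 libraries. These ratios were described and not tested. The shares of hairpins count only the lower direction, which is that of the members, while shares of single miRNAs standing apart count both. No ratio was formed for miR-125b, whose 5p arm has 2 sources.

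**Figure D5:**
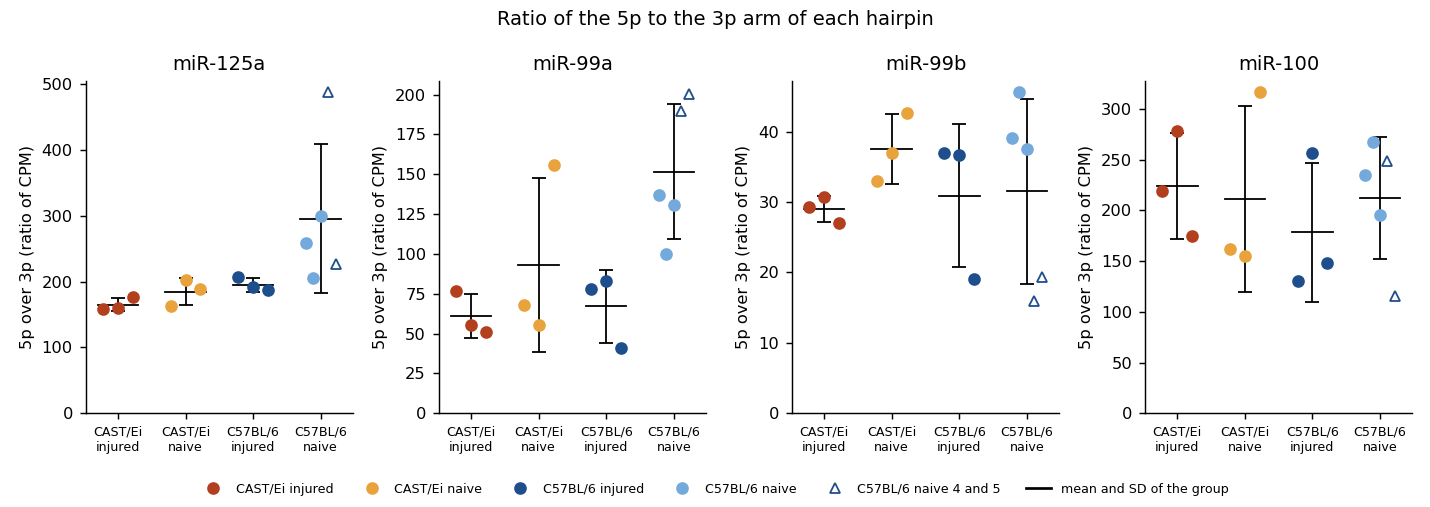
Ratio of the 5p to the 3p arm of 4 hairpins in each library (points, open triangles for C57BL/6 naive 4 and 5), by group on the horizontal axis, with the group mean and SD in black. The miR-99a points of C57BL/6 injured DRG (40.8 to 82.8) lie below those of C57BL/6 naive DRG (100.1 to 200.5).

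The let-7 arms beside the members in the 3 clusters gave no call in any of the 5 comparisons with limma over all libraries. Among the alternatives, let-7a-5p passed between the strains in injured DRG with only the groups compared (adjusted p = 0.0294, in a fit that called 16.5% of the miRNAs). let-7e-3p passed between the strains in naive DRG with DESeq2 (adjusted p = 0.0225, where 18.6% of the miRNAs tested were called). let-7a-5p and let-7c-5p, tumour suppressor miRNAs with copies elsewhere in the genome, and let-7e-5p, from the chromosome 17 cluster, were lower in each CAST/Ei injured than in each C57BL/6 injured library, with log2 differences of −0.53, −0.32 and −0.39 and limma adjusted p-values of 0.696, 0.957 and 0.862. Over the alternatives these ran within 0.0294 to 0.999, 0.107 to 0.999 and 0.0592 to 0.999, and the injured groups stood apart in 35.9% of the kept miRNAs. let-7e-5p and miR-125a-5p lie within 1 short cluster and were near each other in level, with a ratio of 0.730 to 0.886 in CAST/Ei injured, 0.496 to 1.18 in CAST/Ei naive, 1.05 to 1.51 in C57BL/6 injured and 0.346 to 1.09 in C57BL/6 naive DRG. In C57BL/6 naive 4 and 5, miR-125a-5p exceeded the other libraries while let-7e-5p, at 8382 and 6604 CPM, exceeded them only in naive 4, where the other 12 had 4472 to 8298 CPM. miR-99b-5p, from the same cluster, was 0.0659 to 0.380 of miR-125a-5p over the 14 libraries. The 5p arms of 1 cluster thus did not keep a fixed ratio.

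The other carriers of the miR-125 seed were far less abundant. miR-351-5p, encoded on the X chromosome, had 109, 93.5 and 135 CPM in CAST/Ei injured DRG, 97.9, 133 and 138 in CAST/Ei naive, 46.5, 59.97 and 51.8 in C57BL/6 injured and 81.8, 93.0, 86.4, 218 and 331 in C57BL/6 naive libraries 1 to 5. The C57BL/6 injured libraries lay below all others, and the share of the kept miRNAs that split in this way was not counted. In either direction, 14.9% stood apart between injured and naive C57BL/6 DRG and 35.9% between the injured groups. In C57BL/6 DRG its log2 difference between injured and naive was −1.36 ± 0.41 (SE, 95% interval −2.23 to −0.50) with a limma adjusted p of 0.079 (0.00207 to 0.268 over the alternatives). Without naive 4 and 5 it was −0.72 (95% interval −1.18 to −0.26, limma adjusted p = 0.0818). It passed with DESeq2 (adjusted p = 0.00207), edgeR (0.0337, and 0.0493 without naive 4 and 5) and limma without C57BL/6 naive 3 (0.0308). These fits called 79, 32, 27 and 70 miRNAs. Between CAST/Ei and C57BL/6 injured DRG the log2 difference of miR-351-5p was 1.07 ± 0.45 (SE, 95% interval 0.099 to 2.03) with a limma adjusted p of 0.447. It passed without C57BL/6 naive 4 and 5 (adjusted p = 0.00633, with 0.00357 to 0.999 over the alternatives), in a fit that called 5.1% of the miRNAs tested. miR-6367 stood at 84.1 and 141 CPM in C57BL/6 naive 4 and 5 and at 2.60 to 21.7 CPM in the other 12. Its log2 difference between injured and naive C57BL/6 DRG was −1.90 with a limma adjusted p of 0.218, and it passed with DESeq2 (adjusted p = 0.0231, where 12.4% of the miRNAs tested were called). Its first 13 bases equal those of miR-125b-5p, so truncated reads of either could be assigned to the other.

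Some members of a family varied together on the log2 scale. As a description over the 12 libraries without C57BL/6 naive 4 and 5, Pearson's r was 0.90 between miR-99a-5p and miR-100-5p and 0.73 between miR-125a-5p and miR-125b-5p, and over all 14 it was 0.80 and 0.94. Between miR-99a-5p and miR-125b-5p it was 0.50 over the 12 and −0.27 over the 14 libraries. Other pairs did not follow the families. Within a family, miR-99b-5p had r of 0.30 and 0.45 with miR-99a-5p, and 0.43 and 0.46 with miR-100-5p. Across the families, miR-100-5p and miR-125b-5p had 0.62 over the 12 and 0.23 over the 14 libraries. miR-99a-3p ran against miR-125a-5p, with r of −0.73 and −0.87. These libraries share their groups and their scaling.

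Outside the members, the 3 miRNAs with the pattern most like miR-125b-5p over the 14 libraries were miR-664-3p (r = 0.92), miR-183-5p (0.91) and miR-93-3p (0.89). For miR-125a-5p they were miR-1843a-3p (0.92), miR-6418-3p (0.89) and miR-183-5p (0.89). For miR-99a-5p they were miR-20b-5p (0.85), miR-106a-5p (0.82) and miR-195a-5p (0.76). For miR-100-5p they were miR-191-5p (0.69), miR-378a-3p (0.65) and miR-484 (0.64), and for miR-99b-5p miR-7046-3p (0.72), miR-503-5p (0.69) and miR-383-3p (0.62). Without C57BL/6 naive 4 and 5, r between miR-125b-5p and miR-183-5p was 0.63 and that between miR-99a-5p and miR-106a-5p 0.82. They were picked as the highest of all kept miRNAs outside the families, and a high r of this kind is thus a result of the choice.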

How the data were processed

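Mature miRNAs of DRG were sequenced in 14 libraries. Per the labels' protocols, RNA was extracted with the miRVana kit and libraries were made with the Ion Total RNA-Seq kit. Bowtie2 was used, per the submitters' processing notes, and the sources used here do not give the genome build or the release of miRNA names. The deposited files hold 1 signal value per miRNA and library, called CPM in their names. In every library 100% of these values are whole multiples of 1 read's value (tolerance 1e-06), and their totals of 867581 to 1311857 equal the reciprocals of TMM factors computed with edgeR to within 1.04e-05. The read step of C57BL/6 injured library 1 is the least certain. The planned analysis took the values as plain CPM, and its test was kept.

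The filter kept miRNAs that reached 5 CPM in 3 or more libraries. log2(CPM + 1) was fitted with limma-trend (R 4.3.3, limma 3.58.1) as 1 mean per group, and p-values (two-sided) were adjusted by Benjamini and Hochberg over all 638 miRNAs within each comparison at 0.05. Fold changes of low miRNAs are understated on this scale. Alternatives included edgeR 4.0.16 (quasi-likelihood test) and DESeq2 1.42.0 on the recovered reads, other pseudocounts, filters and scalings, and each library left out. Sequences came from RefSeq (GRCm38.p6) and hairpin positions from GENCODE vM21 (GRCm38). Members and lists were chosen with earlier results of these data known. Named miRNAs are all members, their let-7 neighbours, carriers of a 5p seed and the 3 nearest patterns of each 5p member. The series calls the libraries biological replicates. No molecular identifiers are named.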

Additional observations from a re-analysis of the deposited data

How the results depend on the processing

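Of the 11 members, 0 passed in each of the 5 comparisons with limma, and leaving out each library in turn gave 0 to 0. The number was 1 with DESeq2 for C57BL/6 injury (miR-125a-5p), 1 for strain in naive DRG without C57BL/6 naive 4 and 5, with a replicate block or with only 3 libraries a group and no replicate block (miR-125a-3p each time), and 1 for strain in injured DRG with only the groups compared (miR-125b-2-3p). The cause was not tested. With the replicate block the limma adjusted p of miR-125a-3p was 0.0404. That fit and the one with only 3 libraries a group also left out C57BL/6 naive 4 and 5. These settings thus share 1 exclusion, and each gave the same log2 difference of 0.69. Replicate numbers were not taken to pair the libraries, since the labels tie them to no shared animal or batch and 9 of 18 same-numbered pairs, not all, correlated above 0.1 (−0.23 to 0.56). All 3 such pairs of C57BL/6 injured with CAST/Ei naive did. Of 36 best matches 19 were to the own number, where equal odds give 12.

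Over all kept miRNAs the calls were 20 for C57BL/6 injury, with 3 (only the groups compared) to 79 (DESeq2) under alternatives and 70 without C57BL/6 naive replicate 3. They were 7 for CAST/Ei injury, with 3 to 20, 71 for strain in naive DRG, with 21 (only the groups compared) to 147 (without C57BL/6 naive replicate 3), and 21 for strain in injured DRG, with 10 (stricter filter) to 105 (only the groups compared). Of 55 fold changes of members, 28 kept their sign under the 29 alternatives, 3 of which were chosen after seeing the data. Newly called values aside, 54 of 55 moves by over 1 SE came from settings without C57BL/6 naive 4 or 5. Only the groups compared could not be fitted for the strain difference in injury effect, which needs all 4 groups. With 3 libraries in most groups, intervals of about 1 log2 unit limit what could be detected.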
